A study of Mus musculus with 8 samples.

Results

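MHC class II and dendritic cell genes were examined in mouse regulatory T cells (Tregs): H2-Aa, H2-Ab1, H2-Eb1, Cd74, Ciita, H2-DMa, H2-DMb1, Fscn1, Flt3 and Itgax. These 10 genes were taken by their symbols from the 28239 symbols of a table of raw counts, and 6 of the 10 passed the filter on low values. Naive CD4+ T cells were taken by negative selection from spleens of WT (C57BL/6) and Alox15-/- mice on the C57BL/6 background, 4 libraries each, from animals of both sexes aged 10 to 12 weeks. The cells of both groups were driven towards Tregs for 2 days with IL-2, TGF-β and beads carrying antibodies to CD3 and CD28. The deletion of Alox15, which encodes the enzyme 15-lipoxygenase, is present in every cell of the mouse and not only in T cells. The comparison asked how the loss of this enzyme changes the transcriptome of the Treg, and here it is followed in genes that define antigen-presenting cells.

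RNA was profiled by MACE-Seq, which reads the 3′ ends of transcripts. Total counts were 3723151 to 6952596 in the libraries labelled Alox15-/- and 4810125 to 9538962 in those labelled WT. The targeted gene went against its label. Alox15 stood at 70.5, 69.2, 63.7 and 65.3 CPM (counts scaled to library size) in Alox15-/- libraries 1 to 4 and at 1.88, 2.56, 7.77 and 9.02 CPM in WT libraries 1 to 4. Whether the 3′ tags read the deleted part of the gene is not given in the sources used here, so directions below are those of the libraries labelled Alox15-/- and WT. T cell markers were high in both groups. Il2ra, Lck, Ctla4 and Trac, which encode the IL-2 receptor α chain, a T cell receptor kinase, an inhibitory receptor of Tregs and the constant part of the receptor itself, had mean levels between 434 and 833 CPM, and none of the 11 T cell markers passed edgeR's test, where 2 had an unadjusted p under 0.05, against 7.84% of all genes tested (DESeq2 and limma-voom also called 0). Their summed level was 3498 to 3666 CPM in Alox15-/- and 3712 to 3905 CPM in WT libraries, so that the groups did not overlap and the sum was lower in Alox15-/-.

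MHC class II molecules present peptides from the endocytic pathway to CD4+ T cells. An α and a β chain (H2-Aa with H2-Ab1 for I-A, and H2-Eb1 as the β chain of I-E) assemble on the invariant chain, Cd74, which blocks the groove until proteases degrade it. H2-DM, built from H2-DMa and H2-DMb1, then exchanges the last fragment of Cd74 for peptide. Transcription of all these genes depends on Ciita, a coactivator with no DNA-binding domain that is recruited by factors bound to the X and Y boxes of their promoters. Dendritic cells, B cells and macrophages express the set, whereas mouse T cells are known to make little of it. Fscn1 encodes an actin-bundling protein of mature dendritic cells, Flt3 the receptor for the cytokine that drives dendritic cell development, and Itgax the integrin CD11c.

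Promoters of class II genes are known for a shared layout of X and Y boxes. Promoter sequences came from RefSeq (GRCm38.p6), whose table held 8 windows for 7 of the 10 genes. The 250 bases before each start were searched on both strands for GNAACT, a core of the X box, and ATTGG, the Y box read as an inverted CCAAT. Of the 32851 promoters in the table, 37.3% held GNAACT, 33.85% held ATTGG, and 0.6% held GNAACT followed on the same strand by ATTGG at 25 to 40 bases from start to start. The pair was found in the windows of H2-Aa, H2-Eb1 and H2-DMb1. It was not found in those of H2-DMa, Fscn1, Flt3 or Itgax. The letters and the distance were chosen after these promoters had been read, so the counts describe the windows and test nothing. The stretches of the I-A and I-E chain genes are shown because they hold the shared pair, with both motifs in capitals. The stretch of H2-Aa lies at chr17:34287852-34287919 on the minus strand and that of H2-Eb1 at chr17:34305761-34305827 on the plus strand, both upstream of the first exon.
H2-Aa: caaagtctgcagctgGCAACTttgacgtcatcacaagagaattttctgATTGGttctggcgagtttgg
H2-Eb1: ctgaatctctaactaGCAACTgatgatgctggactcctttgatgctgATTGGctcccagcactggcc
The motifs lay 33 bases apart in H2-Aa and 32 in H2-Eb1. The stretch of H2-Aa also holds TGACGTCA in lower case, a cAMP response element of the kind bound by CREB, which 1.55% of the promoters held. Fscn1, without the pair, held the same element. It is shown here in capitals, from chr5:142960274-142960337 on the plus strand, since Fscn1 was the gene of the 10 that passed the test below.
Fscn1: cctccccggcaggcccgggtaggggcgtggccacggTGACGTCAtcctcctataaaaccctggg

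Levels below are CPM scaled by the TMM method, and fold changes are log2 values of Alox15-/- relative to WT. Of the 6 genes that could be tested, Fscn1 rose in the libraries labelled Alox15-/- and the other 5 did not pass the test (edgeR's quasi-likelihood test, Benjamini–Hochberg adjusted p under 0.05 over 12700 genes). Over all genes tested 1.24% passed, and 1.05% passed as higher. The median log2 fold change was 0.26 over the 6 genes and -0.007 over all genes. The labels number 4 libraries in each group, and the study counts the Alox15-/- transcriptomes by mouse. No label ties a library to an animal, and the p-values measure the spread between libraries.

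**Figure D1:**
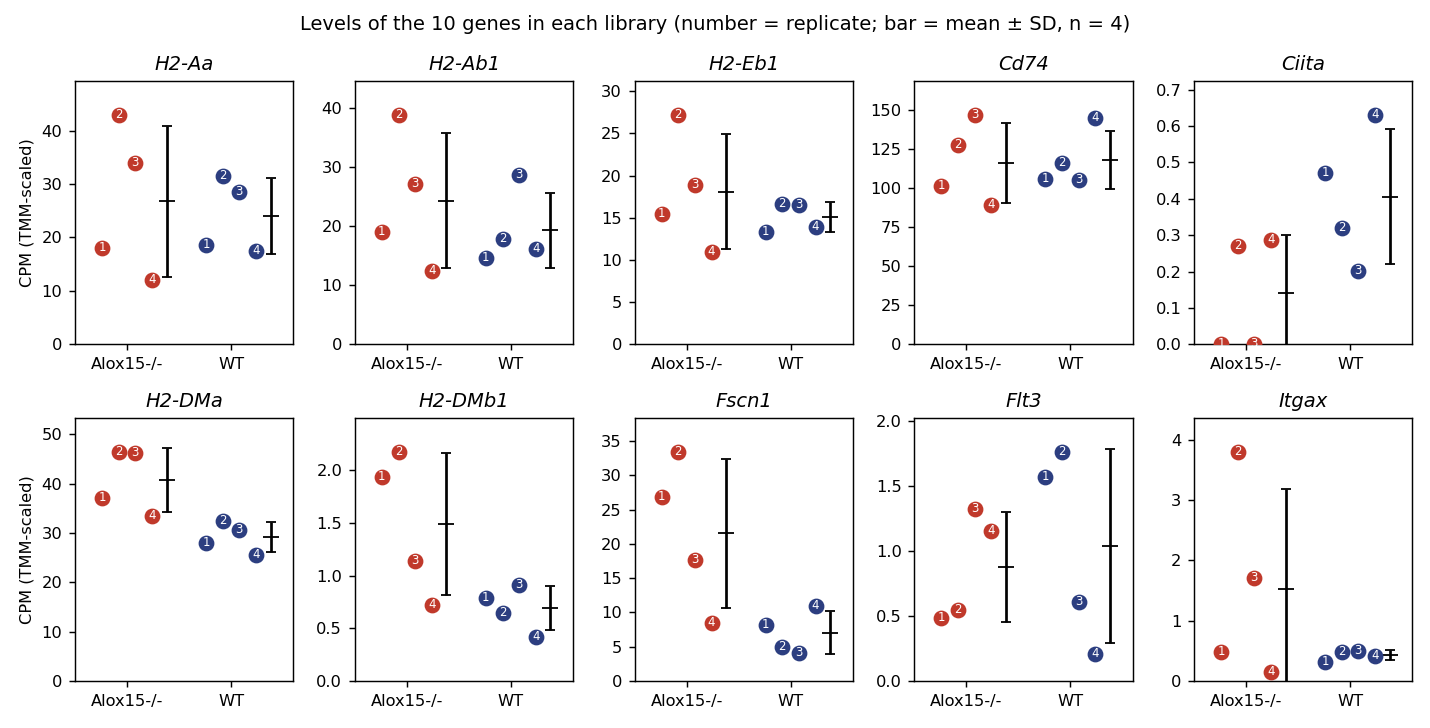
Level of each of the 10 genes in CPM (vertical axes, linear, each from 0) in the 4 Alox15-/- (red) and 4 WT (blue) libraries. Each point is a library with its replicate number, and bars give the mean ± SD. Alox15-/- 2 is highest and Alox15-/- 4 lowest of its group for 7 of the 10 genes, and only H2-DMa has groups that do not overlap.

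The 3 class II chain genes were read in every library and differed more between libraries of one genotype than between the genotypes. H2-Aa (17:34282744-34287823, minus strand, GRCm38) stood at 18.1, 42.9, 34.0 and 12.1 CPM in Alox15-/- libraries 1 to 4 and at 18.5, 31.6, 28.4 and 17.4 CPM in WT libraries 1 to 4. The WT range lay inside the Alox15-/- range. The log2 fold change was 0.12 ± 0.31 (SE), with a 95% interval from -0.54 to 0.78 and an edgeR adjusted p of 0.959. H2-Ab1 (17:34257689-34269419, plus strand), its partner in I-A, stood at 19.1, 38.8, 27.2 and 12.4 CPM in Alox15-/- libraries and at 14.6, 17.8, 28.6 and 16.2 CPM in WT libraries. Again the highest and the lowest library of all 8 were both labelled Alox15-/-. The log2 fold change of H2-Ab1 was 0.29 ± 0.29 (95% interval -0.33 to 0.91, edgeR adjusted p = 0.865). H2-Eb1 (17:34305867-34316674, plus strand) stood at 15.4, 27.1, 18.9 and 10.9 CPM in Alox15-/- libraries and at 13.3, 16.7, 16.5 and 13.9 CPM in WT libraries. Its groups overlapped in the same way. Its log2 fold change was 0.23 ± 0.23 (95% interval -0.25 to 0.71, edgeR adjusted p = 0.861).

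The chains moved together from library to library. Their summed level was 52.6, 109, 80.2 and 35.4 CPM in Alox15-/- libraries 1 to 4 and 46.4, 66.0, 73.6 and 47.4 CPM in WT libraries 1 to 4. Alox15-/- 2 was highest and Alox15-/- 4 lowest of all. The span within the Alox15-/- group was 3.55-fold for H2-Aa, 3.14-fold for H2-Ab1 and 2.48-fold for H2-Eb1, against 1.81-fold, 1.96-fold and 1.25-fold within WT. The counting error behind the levels of H2-Aa gave exact Poisson 95% limits from 36.5 to 50.1 CPM in Alox15-/- 2 and from 9.64 to 14.96 CPM in Alox15-/- 4. Of the genes tested, 1.02% had a larger spread within groups than H2-Aa, 2.07% than H2-Ab1 and 11.5% than H2-Eb1. Within the Alox15-/- group, the libraries at the top and the bottom of this order also had the lowest and the highest total count, whereas within WT the library with the highest total count, WT 3, had the highest summed chains. The part of depth in the order was not tested. The direction of H2-Aa, H2-Ab1 and H2-Eb1 turned without Alox15-/- 2, to log2 fold changes of -0.18, -0.01 and -0.02, and that of H2-Aa also without Alox15-/- 3 (-0.03).

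Cd74 followed the chains only in part. The invariant chain gene (18:60803848-60812652, plus strand), whose 3′ end overlaps the miRNA gene Mir5107, stood at 101, 128, 147 and 89.3 CPM in Alox15-/- libraries 1 to 4 and at 106, 116, 105 and 145 CPM in WT libraries 1 to 4. WT 4 was among the lowest libraries for the chains and close to the highest for Cd74. Counts of Cd74 per count of the 3 chains thus ran from 1.17 in Alox15-/- 2 to 3.05 in WT 4. The spread of Cd74 was smaller than that of the chains, with 22.2% of the mean within Alox15-/- and 15.8% within WT, against 53.0% and 29.5% for H2-Aa. The groups differed by less than the standard error, with a log2 fold change of -0.02 ± 0.15 and a 95% interval from -0.34 to 0.30 (edgeR adjusted p = 0.988).

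H2-DMa, the α chain of the peptide exchanger, was the gene of the 10 whose groups were separate. It lies at 17:34119541-34139101 on the plus strand, where it overlaps Brd2 and predicted genes, none of them in its last 500 bases. H2-DMa stood at 37.2, 46.4, 46.1 and 33.4 CPM in Alox15-/- libraries 1 to 4 and at 28.1, 32.5, 30.7 and 25.6 CPM in WT libraries 1 to 4. Every library labelled Alox15-/- lay above every WT library, which held for 2.74% of all genes tested. The log2 fold change was 0.47 ± 0.14 (95% interval 0.18 to 0.77). It missed the threshold, with an unadjusted p of 0.00386 by edgeR and an adjusted p of 0.202. The exact permutation test over the 8 libraries gave p = 0.0286, the smallest value that 4 against 4 allows. Within the Alox15-/- group Alox15-/- 2 was highest and Alox15-/- 4 lowest, as for the chains, whereas the order within WT differed from that of the summed chains.

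The partner chain and the regulator of the family were read by few counts. H2-DMb1 (17:34153072-34160230, plus strand) had 8, 8, 6 and 5 counts in Alox15-/- libraries and 5, 4, 9 and 2 counts in WT libraries, or 0.72 to 2.17 CPM against 0.42 to 0.91 CPM. It did not reach the filter of 2 CPM in 4 libraries. Its 3′ end is 95.7% identical over 324 bases to that of its neighbour H2-DMb2, so that tags of the 2 genes may have been shared and its level is uncertain. Ciita (16:10480059-10528418, plus strand), on which transcription of the family depends, had 0, 1, 0 and 2 counts in Alox15-/- libraries and 3, 2, 2 and 3 counts in WT libraries. No library held more than 3 counts of Ciita, and a count of 0 allowed a level of up to 0.724 CPM in Alox15-/- 1 (3 counts, counting error only). The exact Poisson 95% interval there ended at 0.89 CPM. The gene overlaps Dexi on the other strand at its 3′ end, and whether strand was used in counting is not given in the sources used here. A difference in Ciita was not detectable at this depth (exact permutation p = 0.114).

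Among the dendritic cell genes, Fscn1 rose 3.09-fold. Fscn1 (5:142960343-142973185, plus strand) stood at 26.8, 33.4, 17.6 and 8.49 CPM in Alox15-/- libraries 1 to 4 and at 8.15, 4.97, 4.14 and 10.9 CPM in WT libraries 1 to 4. Alox15-/- libraries 1 to 3 lay above every WT library, and Alox15-/- 4 lay below WT 4. The log2 fold change was 1.63 ± 0.37 (95% interval 0.83 to 2.42, edgeR adjusted p = 0.0442). The call was close to the threshold: it held in 2 of the 8 fits that left out 1 library, namely those without Alox15-/- 4 (1.92, adjusted p = 0.00337) and without WT 4 (1.89, adjusted p = 0.0105). The fold change stayed between 1.34 and 1.92 in all 8. DESeq2's Wald test gave an adjusted p of 0.0935, limma-voom 0.138 and edgeR's robust fit 0.308. The exact permutation test over the 8 libraries gave p = 0.0571.

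Flt3 and Itgax did not reach the filter. Flt3 (5:147330741-147400489, minus strand) had 2, 2, 7 and 8 counts in Alox15-/- libraries and 10, 11, 6 and 1 counts in WT libraries, with no order between the groups (exact permutation p = 0.657). Itgax (7:128129547-128150657, plus strand) had 2, 14, 9 and 1 counts in Alox15-/- libraries and 2, 3, 5 and 2 counts in WT libraries. Alox15-/- 2 and 3, at 3.80 and 1.70 CPM, stood above the 0.31 to 0.50 CPM of WT, whereas Alox15-/- 4 stood below it at 0.14 CPM. Without the filter the log2 fold change of Itgax was 1.61 with an edgeR adjusted p of 0.343. The difference of 1.10 CPM between the group means was 0.35 CPM without Alox15-/- 2.

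**Figure D2:**
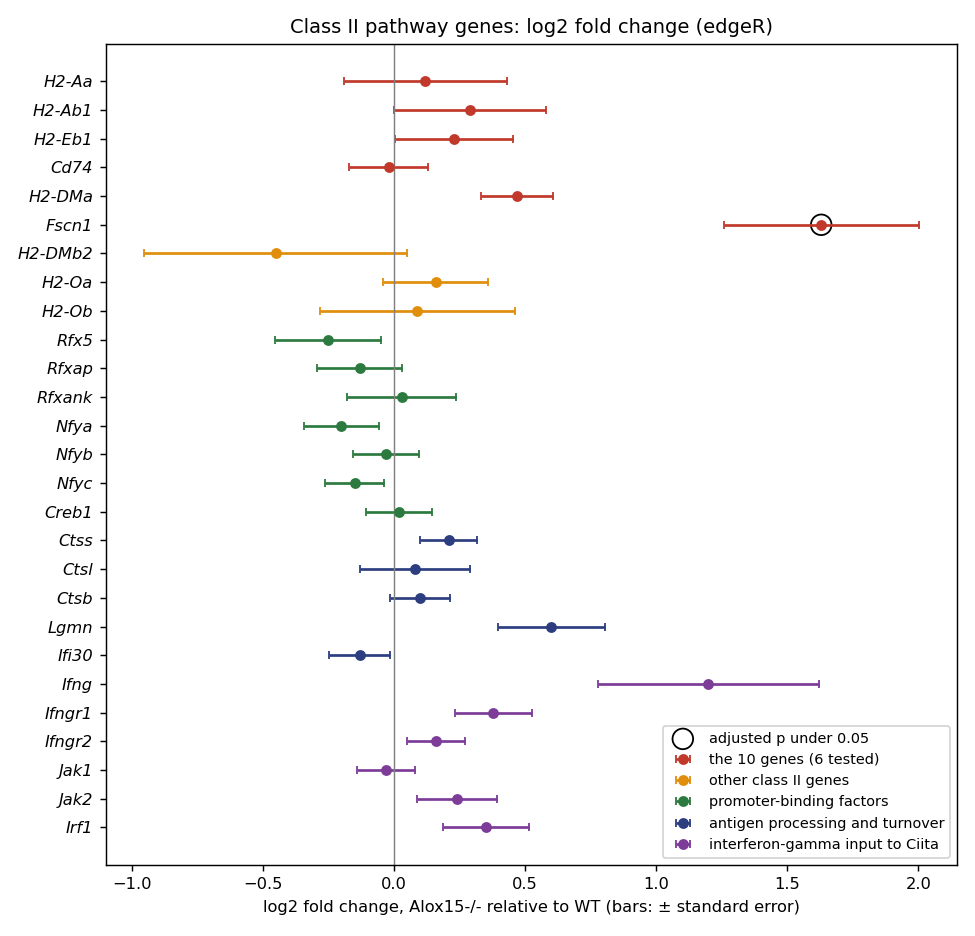
Log2 fold change of Alox15-/- relative to WT (horizontal axis, bars ± SE) for the 6 tested genes of the 10 (red) and tested genes of the class II pathway list, coloured by role. The circle marks an adjusted p under 0.05, which Fscn1 reached and none of the pathway genes shown did.

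The rest of the class II pathway was tested with the same fit. Of 28 other genes listed, 25 were matched in the table and 22 were tested. None passed the test in either direction by edgeR, DESeq2 or limma-voom, 4 had an unadjusted p under 0.05 by edgeR (7.84% over all genes tested), and the median log2 fold change was 0.09. The factors that bind the X and Y boxes, Rfx5, Rfxap, Rfxank, Nfya, Nfyb, Nfyc and Creb1, had log2 fold changes between -0.25 and 0.03. Their median was -0.13. Of the other class II genes, H2-Oa and H2-Ob, the chains of the H2-DM inhibitor H2-O, had log2 fold changes of 0.16 and 0.09. H2-DMb2, the second H2-DM β chain, had 0.97, 4.61, 3.59 and 0.86 CPM in Alox15-/- libraries 1 to 4 and 2.20, 3.20, 5.45 and 1.47 CPM in WT libraries 1 to 4, and overlapped between the groups. The gene of the I-E α chain is inactivated in C57BL/6 mice, where it is annotated as H2-Ea-ps. It had 1 count in Alox15-/- 1 and in Alox15-/- 3 and 0 counts in the other 6 libraries.

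None of the 5 tested enzymes of antigen processing passed edgeR's test, and 1, Lgmn, had an unadjusted p under 0.05. Ctss, the cathepsin that trims the invariant chain, had a log2 fold change of 0.21 ± 0.11, Ctsb 0.10 ± 0.12 and the thiol reductase Ifi30 -0.13 ± 0.12. Lgmn, the asparaginyl endopeptidase that starts the cleavage of Cd74, stood at 10.5 to 17.9 CPM in Alox15-/- libraries and at 7.97 to 10.2 CPM in WT libraries. Its groups did not overlap, which held as higher for 2 of the 25 pathway genes matched and 2.74% of all genes tested. Its log2 fold change of 0.60 ± 0.20 gave an edgeR adjusted p of 0.342. The interferon-γ route that induces Ciita held the other 3 genes with an unadjusted p under 0.05, of which Ifng and Ifngr1 were named after their values were seen. Ifng, the cytokine, stood at 21.7, 10.6, 9.46 and 5.18 CPM in Alox15-/- libraries 1 to 4. In WT libraries 1 to 4 it stood at 4.55, 6.57, 2.02 and 7.77 CPM, and the groups overlapped (exact permutation p = 0.0857). Its log2 fold change was 1.20 ± 0.42, with an edgeR adjusted p of 0.385. Without the filter, the same counts gave an edgeR adjusted p of 0.000187. The log2 fold change of its receptor chain Ifngr1 was 0.38 ± 0.15 (edgeR adjusted p = 0.473), and that of the transcription factor Irf1 was 0.35 ± 0.16 (0.635). The receptor kinases Jak1 and Jak2 had -0.03 ± 0.11 and 0.24 ± 0.15.

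Class II RNA in a T cell culture can come from T cells or from other cells left in it after the negative selection, which is meant to remove them, and in bulk RNA fewer cells of a type and less RNA per cell cannot be told apart. Markers of the cells that carry these genes were therefore set beside them. Of 16 conventional dendritic cell markers in the table, 11 were tested and 2 passed, both higher in the libraries labelled Alox15-/- (1.05% of all genes tested passed as higher). Ccl22, a chemokine of mature dendritic cells that activated T cells can also make, stood at 119, 113, 96.3 and 35.2 CPM in Alox15-/- libraries 1 to 4 and at 28.2, 34.4, 26.6 and 47.9 CPM in WT libraries 1 to 4. As for Fscn1, Alox15-/- 4 lay below WT 4. Its log2 fold change was 1.41 ± 0.29 (edgeR adjusted p = 0.0222), and the call held in 2 of the 8 fits that left out 1 library, those without Alox15-/- 4 and without WT 4. It held in 5 of 8 other settings and was lost with the robust fit, limma-voom and the replicate block. Csf2rb, the common β chain of the receptors for GM-CSF, IL-3 and IL-5, stood at 36.5, 64.9, 31.0 and 15.1 CPM against 2.67, 3.36, 5.65 and 6.30 CPM. These groups did not overlap, which held as higher for 2.74% of all genes tested. Its log2 fold change was 3.0 ± 0.38 (edgeR adjusted p = 0.000361), with the call kept in all 8 such fits.

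The other listed dendritic cell markers were not matched, fell below the filter or did not pass the test with it. Clec9a and Clec10a were not matched in the table, and Xcr1, Cd209a, Il12b and Snx22 were at 0 in at least 1 library. Zbtb46, a factor largely restricted to conventional dendritic cells, stood at 2.11 ± 0.55 CPM (SD, n = 4) in Alox15-/- and 2.05 ± 0.31 CPM (SD, n = 4) in WT libraries, a log2 fold change of 0.02. Ccr7, Relb and Ly75, which T cells also express, had log2 fold changes of -0.01, 0.13 and 0.07. The following genes were named after their values were seen. Ccl17, the partner chemokine of Ccl22, had 24, 29, 50 and 4 counts in Alox15-/- libraries and 3, 4, 1 and 4 counts in WT libraries, and fell below the filter. Without the filter its log2 fold change was 3.58, past the threshold. Batf3, a dendritic cell and T helper factor, had a log2 fold change of 1.12 (edgeR adjusted p = 0.231, and 0.00173 without the filter). The maturation marker Cd83 had one of -0.69 (adjusted p = 0.118, and 3.68e-05 without the filter). The summed level of all 16 markers was 1406 to 1656 CPM in Alox15-/- and 1279 to 1507 CPM in WT libraries, of which Ccr7 made up the greater share. The part of dendritic cells in the levels of Fscn1 and the chains was not tested.

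**Figure D3:**
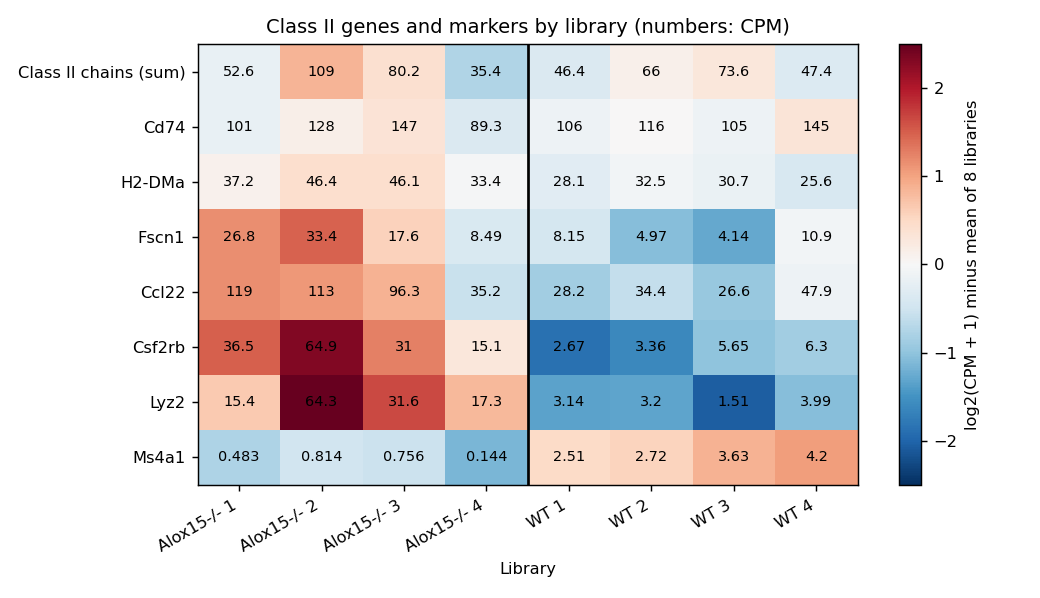
Levels of the summed chains, Cd74, H2-DMa, Fscn1 and the markers that passed the test in each library. Printed numbers are CPM, and colours give log2(CPM + 1) minus the mean of the 8 libraries. Lyz2 and Csf2rb separate the groups, with Alox15-/- 2 highest in both and in the summed chains, and Ms4a1, at 1 to 4 counts in each Alox15-/- library, is lower there.

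The summed level of monocyte and macrophage markers was higher in every library labelled Alox15-/- than in any WT library. This level over the 13 markers in the table was 31.6 to 101 CPM against 11.8 to 18.0 CPM in WT. Lyz2 supplied on average 32.2 of 55.6 CPM in Alox15-/- and 2.96 of 15.6 CPM in WT libraries, and the difference of 40.01 CPM between the means was 24.8 CPM without Alox15-/- 2. Of these 13, 3 were tested and 1 passed. Lyz2, the myeloid lysozyme, stood at 15.4, 64.3, 31.6 and 17.3 CPM in Alox15-/- libraries 1 to 4 and at 3.14, 3.20, 1.51 and 3.99 CPM in WT libraries 1 to 4. Its log2 fold change was 3.49 ± 0.44 (edgeR adjusted p = 0.000359), and Alox15-/- 2 was highest, as for the chains, H2-DMa and Fscn1. Of the untested markers, Csf1r, the receptor for the macrophage growth factor, had 6, 19, 15 and 3 counts in Alox15-/- libraries and 5, 5, 2 and 3 counts in WT libraries. Spi1, the myeloid factor PU.1, had 7, 26, 11 and 10 counts against 5, 5, 15 and 7 counts. Both were named after their values were seen, and both, as CPM, again peaked in Alox15-/- 2 and were lowest of that group in Alox15-/- 4. Adgre1, Cd14 and Ccr2 had 2 to 8 counts in every Alox15-/- library and 0 to 5 counts in WT libraries, with each Alox15-/- library above the WT mean in CPM. C1qb had 0 to 2 counts in Alox15-/- libraries and 0 counts in WT libraries, and C1qa and C1qc were not matched. The part of these cells in the class II levels was not tested.

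Of 19 B cell markers in the table, 9 were tested and 1 passed, as lower, which 25 of the 12700 genes tested did. Ms4a1, which encodes CD20, stood at 0.48, 0.81, 0.76 and 0.14 CPM in Alox15-/- libraries 1 to 4 and at 2.51, 2.72, 3.63 and 4.20 CPM in WT libraries 1 to 4. Its log2 fold change was -2.64 ± 0.44 (edgeR adjusted p = 0.00413). Ms4a1 passed the filter through the WT libraries alone and fell below it when any of them was left out, so its call is a description and no support for a change in B cell markers. Ighm and Fcrla had log2 fold changes of 0.03 and 0.02, and the summed level of the list, mostly Ighm, was 282 to 377 CPM in Alox15-/- and 310 to 371 CPM in WT libraries. Pax5, Blk, Fcer2a, Cd22 and Iglc2 were among the markers at 0 in at least 1 library. The part of B cells in the levels of Cd74 and the chains was not tested. None of the 6 tested plasmacytoid dendritic cell markers passed by edgeR, where 2 had an unadjusted p under 0.05 (7.84% over all genes tested) and DESeq2 called 1, and their summed level was 474 to 721 CPM against 479 to 629 CPM. Bst2, which interferon also induces, came nearest with a log2 fold change of 0.56 ± 0.14 (edgeR adjusted p = 0.0675, and 0.0028 without the filter).

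The genes whose levels were most like those of the class II set were sought over the 8 libraries, with each gene's log2(CPM + 1) set against that of the summed level of H2-Aa, H2-Ab1, H2-Eb1 and Cd74. Tars (Pearson r = 0.95), Emc1 (0.94), P4hb (0.93), Lpcat3 (0.93) and Pgk1 (0.92) came first. With group means subtracted, the first were Pgk1 (0.99), Tars (0.98), Blvrb (0.98), Nme7 (0.97) and Alas2 (0.97). Cd74 supplied most of the counts of this sum. With the chains alone, a choice made after seeing the data, other genes came first: Tsnax (0.98), Cd24a (0.97), C2 (0.96), Gnptab (0.96) and Ska3 (0.94). With group means subtracted the first were Tsnax (0.99), Gpnmb (0.98), Cd24a (0.98), Serpina3g (0.97) and Cybb (0.96). Cybb, a subunit of the phagocyte oxidase, stood at 11.1 CPM on average in Alox15-/- and 2.01 CPM in WT libraries, and Gpnmb, a glycoprotein of macrophages, at 13.4 and 0.84 CPM. On this measure H2-DMa followed the chains within groups (0.93), as did H2-DMb2 (0.93), whereas Cd74 (0.54) and Fscn1 (0.35) did so less closely. These values describe 8 libraries that share depth and composition, and among 12700 genes some come near 1 without any relation.

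**Figure D4:**
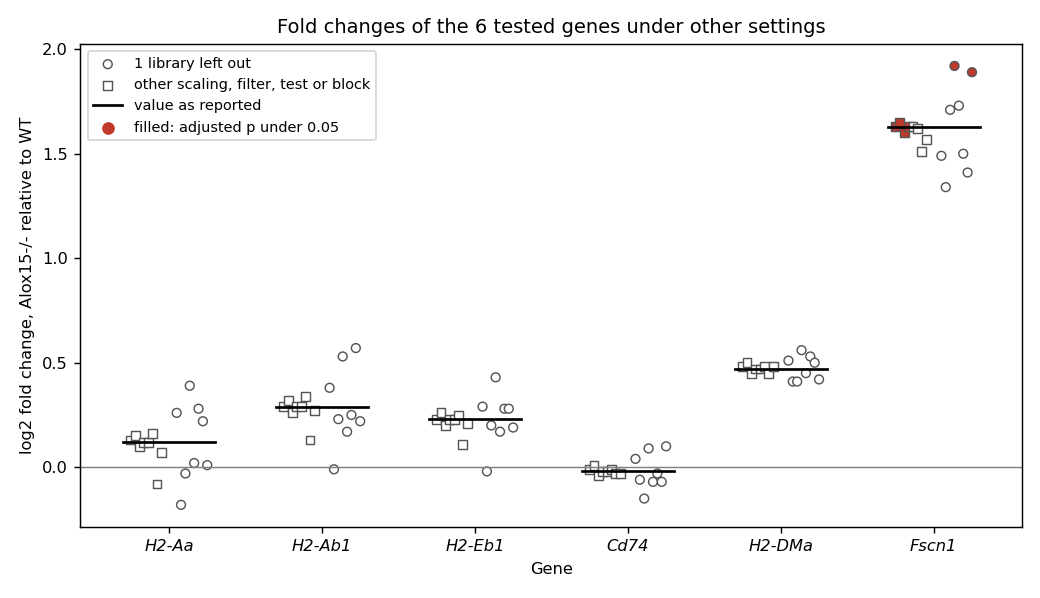
Log2 fold change of the 6 tested genes (vertical axis) under other settings. Squares are other scalings, filters, tests or the replicate block, circles are fits without 1 library, the black line is the value as reported, and filled symbols have an adjusted p under 0.05. Fscn1 stays between 1.34 and 1.92 with 6 of 16 symbols filled, H2-DMa stays between 0.41 and 0.56 with none filled, and the chains and Cd74 lie on both sides of 0.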

How the data were processed

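The authors deposited raw read counts per gene symbol, without normalization, for 8 MACE-Seq libraries of Tregs. Per the submitters' processing notes Bowtie, edgeR and GRCm38 were used, with no versions or roles, and reads were cleaned and trimmed. The labels name a small RNA kit where the methods name MACE-Seq, and the removal of duplicate reads is not given in the sources used here. The table held 28239 symbols, including 26 that look like dates and 2 that are repeated, all kept. Groups and columns were matched by library titles.

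Following the methods, 12700 genes reached 2 CPM or more in 4 or more libraries. They were tested with edgeR 4.0.16 (R 4.3.3; TMM, glmQLFit and glmQLFTest, group as the only term, two-sided), with Benjamini–Hochberg adjustment at 0.05. Standard errors were obtained as the absolute log2 fold change over the square root of F, and 95% intervals from the t distribution with the fit's degrees of freedom. The biological coefficient of variation was 14.5%. Single genes were also compared by two-sided exact permutation tests (scipy 1.17.1). Poisson limits are exact, at 95%, and cover counting error only. Alternatives were other scalings (DESeq2 size factors, upper quartile) and filters, edgeR's robust fit, DESeq2 1.42.0, limma-voom (limma 3.58.1), a replicate block and leaving out each library. On simulated data 189 of 200 genes changed by a log2 fold of 1.5 were called (94.5%), with 12 false calls (5.97% of calls), over 12700 genes. The changed genes were drawn at random from all genes tested. This rate does not cover smaller fold changes, such as those of the chains, or genes of larger spread.

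Gene positions are those of GENCODE (GRCm38), promoters from RefSeq (GRCm38.p6), and shared 3′ ends from blastn 2.17.0 on the last 500 bases (matches of 100 bases or more with 90% identity or higher). The 10 genes, the lists and the tests were chosen with earlier results of these data known. Named are the 10 genes, Alox15, in each list the genes past the threshold and at most the 4 with the highest mean CPM, and the 5 genes most like the class II pattern; some list genes are not reported here. Python 3.11.15 with pandas 2.3.3 and matplotlib 3.10.9 made the tables and figures.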

Additional observations from a re-analysis of the deposited data

Results flagged for a closer look

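The summed level of the conventional dendritic cell markers was 1656 CPM in Alox15-/- 1, far from the other 3 libraries of its group, which lay between 1406 and 1412 CPM. Its gap to the nearest library was 0.977 of the range of the group, above Dixon's 95% critical value for 4 samples. Ccr7, which T cells also express, stood at 1287 CPM in that library. Of 32 groups of 4 libraries examined in this way 1 was marked, and chance marks about 1 in 20.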

How the results depend on the processing

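The limits lie in the few libraries and in genes of few counts. Replicate numbers did not pair the libraries: deviations of same-numbered libraries correlated at 0.0691, 0.165, -0.178 and -0.0177. With the replicate block Fscn1 had a log2 fold change of 1.57 with an adjusted p of 0.0696, 0 of the 10 genes passed, and 146 genes passed in all against 158. The call of Fscn1 was also lost, leaving 0 of the 10 genes, with edgeR's robust fit (1.63), DESeq2's Wald test (1.62) and limma-voom (1.51), and it was kept with the other scalings and filters. Leaving out 1 library gave 0 to 1 of the 10 genes, 1.34 to 1.92 for Fscn1 and 86 to 172 genes in all, with 95, 86 and 93 genes without Alox15-/- 1, 2 and 3 and 105 without WT 2. It gave -0.18 to 0.39 for H2-Aa, -0.01 to 0.57 for H2-Ab1, -0.02 to 0.43 for H2-Eb1 and -0.15 to 0.10 for Cd74. limma-voom turned H2-Aa to -0.08, and upper quartile scaling turned Cd74 to 0.01. H2-DMa kept its direction and stayed short of the threshold in all 16 alternatives, with an adjusted p of 0.103 to 0.547. Without the filter 388 genes passed, among them 1 of the other class II pathway genes, 5 conventional and 1 plasmacytoid dendritic cell markers, 3 B cell markers, 2 markers of monocytes and macrophages and 1 T cell marker. The conventional dendritic cell count was 1 with the robust fit and limma-voom and 1 to 2 without 1 library, and that of B cells 0 to 1. The plasmacytoid count was 1 with upper quartile scaling, the robust fit and DESeq2. The cause of these shifts was not tested. For Ciita, H2-DMb1, Flt3 and Itgax a difference was not detectable at this depth.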
